A study of Rattus norvegicus with 6 samples.

Results

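Genes of retinoic acid signalling, 9 in number, were followed: the retinoic acid receptors Rara, Rarb and Rarg, the retinoid X receptors Rxra, Rxrb and Rxrg, the cellular retinoic acid binding proteins Crabp1 and Crabp2, and the retinaldehyde dehydrogenase Aldh1a1. They were taken by symbol from a table of 22601 genes, and 9 of 9 were present and passed the filter on low counts that left 14588 genes for testing. Ventral hippocampus was sampled from male Sprague Dawley rats (an outbred stock), 3 of them aged 4 months (adult) and 3 aged 22 months (aged), and each rat gave a library. The rats were drawn at random from groups of 10 per age that had been through the Morris water maze, a test of spatial memory, and the labels name no treatment or genetic change in either group. The comparison asked how these transcripts differed between the ages.

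Retinoic acid is made from vitamin A. Retinol is oxidised to retinaldehyde by retinol dehydrogenases, and retinaldehyde to retinoic acid by the Aldh1a enzymes, while the Cyp26 enzymes degrade the product. Inside the cell retinoic acid is carried by the CRABP proteins and binds the RARs, which sit on DNA as dimers with an RXR and turn target genes on. In the brain the pathway takes part in neuronal differentiation and in the control of synaptic strength, and the meninges and choroid plexus are known sites of its production.

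Library totals lay between 12476758 and 15689921 counts. Levels are given as CPM, the count scaled to a common library size after TMM adjustment, which compare a gene between libraries, or as FPKM, which also divide by gene length and compare genes with each other. The 8 hippocampal marker genes looked up were all detected and summed to between 310.9 and 720.1 CPM, with the highest sum in adult replicate 3. Transcripts of other tissues differed between the libraries. The 10 choroid plexus genes summed to 2180 CPM in adult replicate 1 and to between 11.2 and 76.2 CPM in the other 5 libraries, with Otx2 at 0 in all of them. Ttr alone gave 2076 CPM of the sum in adult replicate 1. The listed genes other than Ttr and Otx2 were also highest in that library. The 10 liver genes summed to 22.8 and 26.0 CPM in replicate 1 of the adult and aged groups and to between 211.1 and 547.8 CPM elsewhere. The 10 skeletal muscle genes summed to 497.8 CPM in adult replicate 3 and to between 49.7 and 169.4 CPM elsewhere.

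None of the 9 genes was called different between the ages. Of the 14588 genes tested with edgeR (quasi-likelihood, Benjamini-Hochberg adjustment), 0 passed an adjusted p of 0.05 (0.00% of all genes), and 503 (3.45%) had an unadjusted p under 0.05. Among the 9 genes the corresponding counts were 0 and 1, the latter being Aldh1a1. DESeq2 called 31 genes in the table and 0 of the 9. Aldh1a1 was also the only one of the 9 genes whose 3 aged and 3 adult CPM values did not overlap, a state seen in 1103 genes (7.56% of those tested, with 4.43% lower and 3.13% higher in aged rats). Fitted values were higher in aged rats for 4 of the genes and lower for 5, with a median log2 fold change of -0.09, against -0.0022 over all genes tested.

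**Figure D1:**
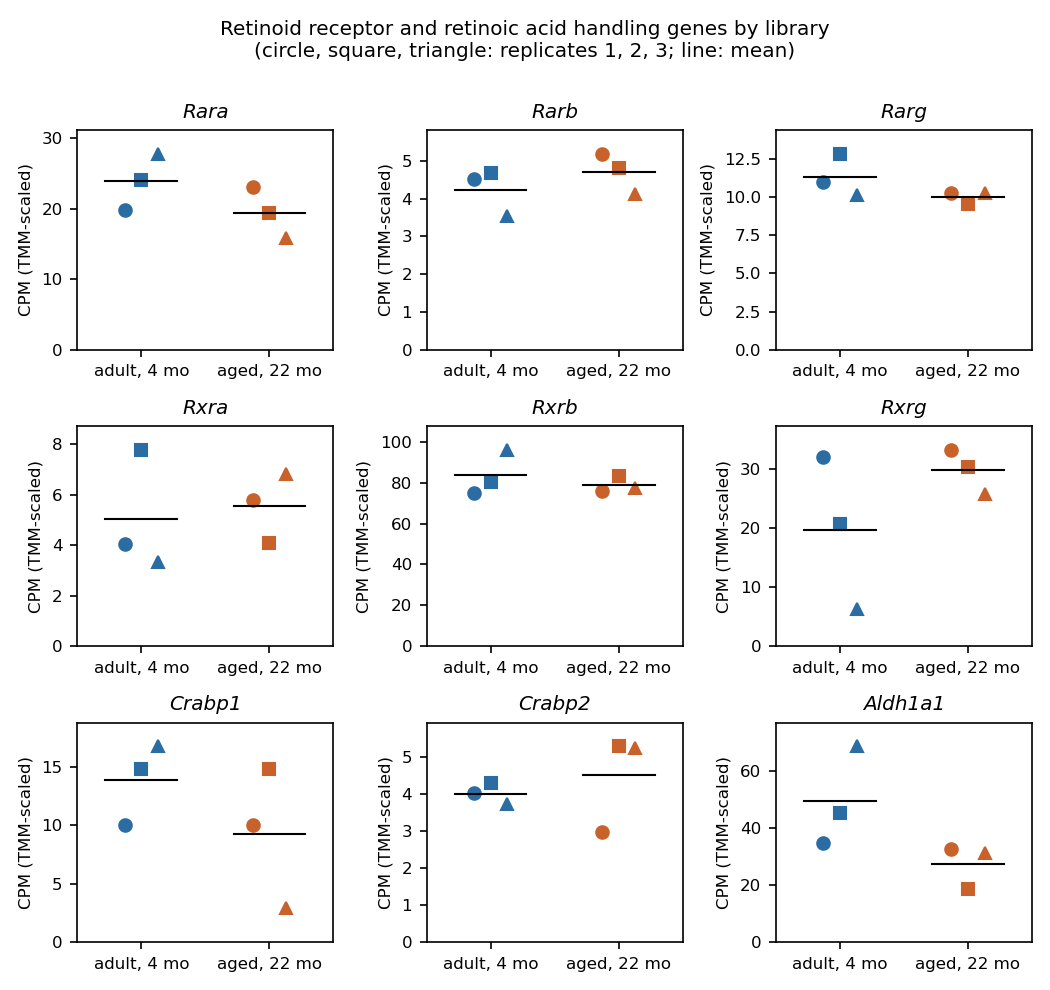
Levels of the 9 genes in each library, in TMM-scaled CPM, with adult rats (4 months) in blue and aged rats (22 months) in orange. Symbols mark replicates 1 to 3 and the line is the group mean. The groups overlap in every panel except Aldh1a1, where the aged libraries lie between 18.8 and 32.6 CPM and the adult libraries between 34.7 and 68.5 CPM.

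Aldh1a1 makes retinoic acid from retinaldehyde. Taking replicates in the order 1 to 3, as throughout, its level was 34.7, 45.3 and 68.5 CPM in adult rats and 32.6, 18.8 and 31.1 CPM in aged rats. The lowest adult and the highest aged library, which were both replicate 1, nearly met, and adult replicate 3 stood apart at the top. The group means were 49.5 ± 17.3 and 27.5 ± 7.56 CPM (SD, n = 3). The log2 fold change was -0.85 ± 0.29 (SE), with a 95% interval of -1.51 to -0.19, and the edgeR quasi-likelihood test gave an unadjusted p of 0.0183 and an adjusted p of 1. The corresponding adjusted p was 0.575 with DESeq2. Without adult replicate 3 the log2 fold change was -0.53 (edgeR unadjusted p = 0.0746), and without aged replicate 2 it was -0.63 (edgeR unadjusted p = 0.0540). In tissue samples such as these, fewer cells of a type and less RNA per cell cannot be told apart.

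Skeletal muscle transcripts and Aldh1a1 had their highest and lowest values in the same libraries, and differed in the order of the others. The 10 muscle genes, none of them at 0, summed to 167.7, 155.5 and 497.8 CPM in the adult libraries, with aged sums of 169.4, 49.7 and 94.2 CPM. The highest muscle sum and the highest Aldh1a1 level were both in adult replicate 3, and the lowest of both in aged replicate 2. The next highest muscle sum was in aged replicate 1, and the next highest Aldh1a1 level in adult replicate 2. Fitted values were lower in aged rats for 10 of 10 muscle genes and for 10 of 10 liver genes, against 50.55% of all genes tested. The CPM values of the 2 ages did not overlap in 1 muscle gene and 0 liver genes, against 7.56% of all genes tested. The genes of a list were measured in the same libraries, so they are not separate observations of age. Aldh1a1 is also abundant in liver. Between the 2 libraries low in liver transcripts, Aldh1a1 stood at 34.7 CPM in the adult and 32.6 CPM in the aged rat. Among the other 4 libraries it stood at 45.3 and 68.5 CPM in adult and at 18.8 and 31.1 CPM in aged rats. Over those 4, a set chosen after seeing the data, its log2 fold change was -1.17 (edgeR unadjusted p = 0.00777, adjusted p = 0.803). The part of muscle or liver RNA in the Aldh1a1 values was not tested.

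The genes whose pattern over the 6 libraries was most like that of Aldh1a1 were Hrc, Xirp1 and Trim16. Likeness was the root mean square difference of log2 CPM, each gene centred on its own mean, among 13108 candidate genes, and it was 0.15, 0.18 and 0.21 log2 units in that order. Hrc encodes a calcium-binding protein of the sarcoplasmic reticulum and Xirp1 an actin-binding protein of striated muscle. Hrc stood at 3.73 CPM in adult replicate 3 against 0.643 to 1.64 CPM elsewhere, and Xirp1 at 2.20 CPM against 0.321 to 1.065 CPM. Trim16 ran from 1.125 to 3.33 CPM, with adult replicates 2 and 3 close together at 3.29 and 3.33 CPM. These are descriptions over 6 libraries, scaled for depth, each with its own tissue make-up.

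**Figure D2:**
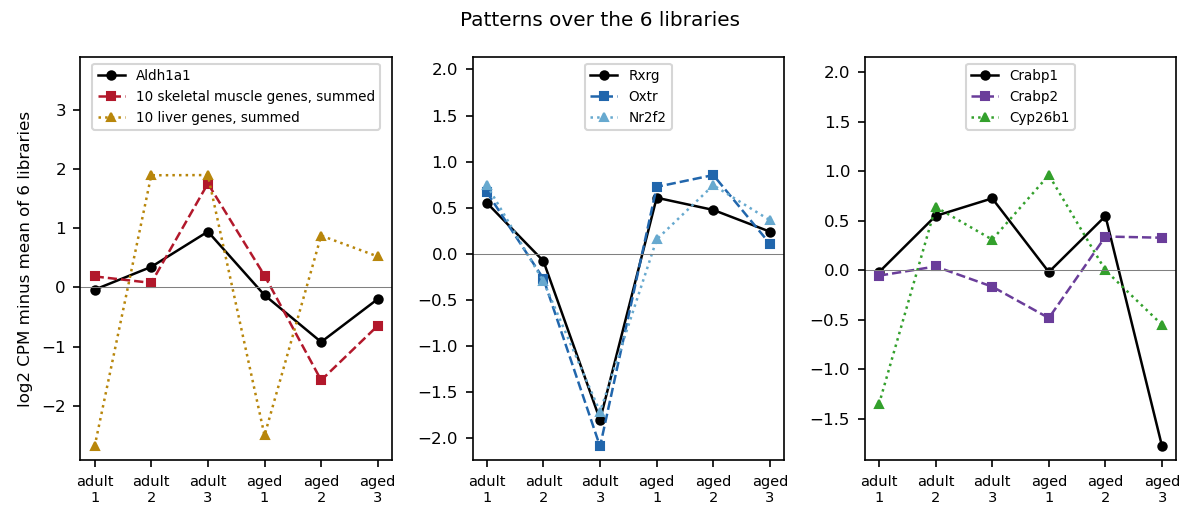
Log2 CPM minus its mean over the 6 libraries, by library: Aldh1a1 with the summed skeletal muscle and liver genes (left), Rxrg with Oxtr and Nr2f2 (middle) and Crabp1 with Crabp2 and Cyp26b1 (right). Aldh1a1 and the muscle genes both peak in adult replicate 3 and are lowest in aged replicate 2, Rxrg, Oxtr and Nr2f2 are lowest in adult replicate 3, and Crabp1 is lowest in aged replicate 3.

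The other enzymes of this step were scarce. Aldh1a2, the main retinaldehyde dehydrogenase of the meninges, stood at 5.19, 2.84 and 3.00 CPM in adult and at 3.06, 2.25 and 2.82 CPM in aged rats, with the highest value in adult replicate 1. Its groups overlapped, and its log2 fold change was -0.44 ± 0.34 (SE). Per length, Aldh1a1 was between 7.18 and 24.6 times as abundant as Aldh1a2 in FPKM. Aldh1a3 and Aldh1a7 held 6 and 5 counts in all libraries together and were not tested. Aldh1a7 is a close copy of Aldh1a1, so how reads common to both were assigned makes the Aldh1a1 count less certain. The 10 meningeal fibroblast genes, none at 0, summed to between 184.5 and 326.5 CPM in adult and between 83.1 and 154.3 CPM in aged rats. Of the 8 of them that were tested, 6 had lower fitted values in aged rats, against 50.55% of all genes tested. Dcn and Slc22a6 had higher ones, and much of the sum came from Col1a1 and Igf2. The part of meningeal RNA in the Aldh1a2 values was not tested.

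The 3 retinoic acid receptors kept a fixed order per length. Rara exceeded Rarg, and Rarg exceeded Rarb, in 6 of 6 libraries. Rara made up between 54.9% and 69.2% of the summed FPKM of the family, Rarg between 22.1% and 31.0%, and Rarb between 8.73% and 14.7%.

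Rara, the receptor also tied to synaptic scaling in hippocampal neurons, stood at 19.9, 24.0 and 27.8 CPM in adult and at 23.0, 19.4 and 15.9 CPM in aged rats. The highest value was in adult replicate 3 and the lowest in aged replicate 3, and the groups overlapped. Its log2 fold change was -0.30 ± 0.19 (SE), with a 95% interval of -0.74 to 0.15 (edgeR unadjusted p = 0.160). The value was -0.17 without adult replicate 3 or without aged replicate 3. Over the 4 libraries left without replicate 1 of both ages, a set chosen after seeing the data, it was -0.54 (edgeR unadjusted p = 0.0474, adjusted p = 1.00).

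Rarg, the receptor best known from skin and cartilage, stood at 11.0, 12.8 and 10.1 CPM in adult and at 10.3, 9.56 and 10.3 CPM in aged rats, so that the aged libraries lay close together, with 1 of them below the adult range and the other 2 inside its lower end. Its log2 fold change was -0.18 ± 0.18 (SE), with a 95% interval of -0.59 to 0.24. In the GRCr8 annotation Rara overlaps 2 long noncoding RNA genes and Rarg overlaps 1, so reads in the shared bases could belong to either gene if strand was not used.

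Rarb is both a receptor and a textbook target of retinoic acid, through a response element in its own promoter. RAR and RXR dimers bind 2 half-sites of 6 bases in direct repeat, and half-sites reading either AGGTCA or else GGGTCA or else AGTTCA or else GGTTCA were searched on both strands of RefSeq's promoter windows (GRCr8, 250 bases before to 50 after each gene's start) with spacers of 1, 2 or 5 bases. A repeat with a spacer of 5 (DR5) was found in 128 of 33469 windows (0.382%), one with a spacer of 1 in 78 (0.233%) and one with a spacer of 2 in 57 (0.170%). Of the 10 windows of the 9 genes, only that of Rarb held any of these repeats, and among the 60 pathway genes with a window, the 9 included, the other was that of Cyp26a1, the retinoic acid degrading enzyme. They are shown because these are the 2 genes described here whose windows carry a repeat of the kind these receptors bind, with the 17 bases of the repeat in capitals.
Rarb: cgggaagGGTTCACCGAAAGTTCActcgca
Cyp26a1: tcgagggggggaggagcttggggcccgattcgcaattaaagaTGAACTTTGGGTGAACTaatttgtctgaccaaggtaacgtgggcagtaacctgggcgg
The Rarb stretch is chr15:11336409-11336438 of GRCr8, plus strand, and its repeat covers bases 25 to 41 after the RefSeq start. The Cyp26a1 stretch is chr1:244883688-244883787, plus strand, and its repeat, which reads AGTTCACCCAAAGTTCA on the other strand, covers bases -92 to -76. A match in these letters is a description and not evidence of binding.

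Rarb stood at 4.51, 4.68 and 3.53 CPM in adult and at 5.19, 4.82 and 4.13 CPM in aged rats, from between 53 and 78 counts per library. The groups overlapped, adult replicate 3 was lowest, and the log2 fold change was 0.15 ± 0.26 (SE), with a 95% interval of -0.44 to 0.74. Cyp26a1 stood at 1.84, 0.379 and 0.0667 CPM in adult and at 2.13, 3.61 and 1.81 CPM in aged rats, from 27, 6 and 1 counts in adult and 32, 45 and 29 counts in aged libraries. Adult replicate 1 lay among the aged values and the other 2 adult libraries far below them. The Cyp26a1 log2 fold change was 1.72 ± 0.84 (SE), with a 95% interval of -0.22 to 3.65 (edgeR unadjusted p = 0.0754, adjusted p = 1). Without adult replicate 1, the library rich in choroid plexus transcripts, it was 3.44 (edgeR unadjusted p = 0.00176, adjusted p = 0.861). That value rests on the 6 and 1 counts of the other adult libraries, and the part of choroid plexus RNA in the Cyp26a1 values was not tested. Across all 6 libraries Rarb stayed between 3.53 and 5.19 CPM, while Cyp26a1 ran from 0.0667 to 3.61 CPM.

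Among the retinoid X receptors, the common partners of the RARs and of several other nuclear receptors, Rxrb dominated. It held between 58.4% and 86.2% of the summed FPKM of the 3 genes and was the most abundant of the 9 genes on average, at 25.9 ± 2.90 FPKM in adult and 24.7 ± 1.44 FPKM in aged rats (SD, n = 3). Rxrb exceeded Rxrg in 6 of 6 libraries, and Rxrg exceeded Rxra in 5. The FPKM of Rxra rest on a gene length of 1377 bases, as implied by the deposited counts and FPKM, the shortest of the 6 receptors, whose other lengths run from 2640 to 4726 bases. Summed over each family, the RXRs stood between 3.57 and 5.54 times as high as the RARs in FPKM.

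**Figure D3:**
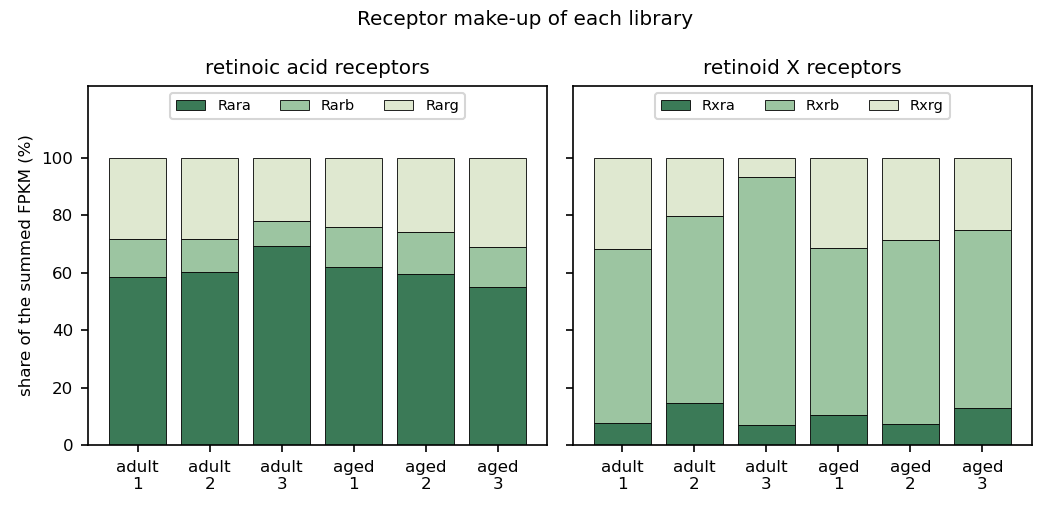
Share of each gene in the summed FPKM of its receptor family, in percent, for each of the 6 libraries: retinoic acid receptors (left) and retinoid X receptors (right). Rara is the largest RAR share and Rxrb the largest RXR share in every library, and Rxrg is at 6.85% in adult replicate 3.

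Rxrb stood at 75.1, 80.5 and 96.0 CPM in adult and at 75.7, 83.5 and 77.6 CPM in aged rats. All but adult replicate 3 lay within a narrow band, and the groups overlapped. The log2 fold change was -0.09 ± 0.13 (SE), with a 95% interval of -0.38 to 0.20, the narrowest of the 9 genes, and it was 0.03 without adult replicate 3. Rxrb overlaps Slc39a7 in the GRCr8 annotation, which leaves its count uncertain in the shared bases.

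Rxra, the main RXR of liver, kidney and skin, stood at 4.03, 7.77 and 3.33 CPM in adult and at 5.79, 4.10 and 6.82 CPM in aged rats. Its libraries interleaved, with the highest and the lowest both adult. The log2 fold change was 0.14 ± 0.37 (SE), with a 95% interval of -0.72 to 1.01, and it was 0.60 without adult replicate 2 and -0.07 without adult replicate 3. Frem2, Dnajc18 and Axl had the patterns most like it, with root mean square differences of 0.080, 0.083 and 0.090 log2 units.

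Rxrg, the RXR of striatum, skeletal muscle and the oligodendrocyte lineage, stood at 32.0, 20.7 and 6.27 CPM in adult and at 33.3, 30.4 and 25.8 CPM in aged rats. Adult replicate 3 was far below the rest, and adult replicate 1 lay within the aged range. The adult libraries thus spanned 5.11-fold and the aged ones 1.29-fold. The log2 fold change was 0.60 ± 0.47 (SE), with a 95% interval of -0.48 to 1.68 (edgeR unadjusted p = 0.237). Without adult replicate 3 it was 0.19, and without adult replicate 1 it was 1.15 (edgeR unadjusted p = 0.0310, adjusted p = 1). The sign was the same and the size depended on which adult rat was left out.

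The genes most like Rxrg were Oxtr, the oxytocin receptor, Arhgap8, and Nr2f2, a nuclear receptor of caudal and ventral forebrain, with root mean square differences of 0.16, 0.18 and 0.25 log2 units. Oxtr stood at 1.2 CPM and Nr2f2 at 14.5 CPM in adult replicate 3, against 4.24 to 9.24 and 38.6 to 79.6 CPM in the other libraries. In adult replicate 3 the dentate gyrus genes Prox1 and C1ql2 were at their highest, at 100.1 and 175.5 CPM, against 28.4 to 63.3 and 64.0 to 83.3 CPM elsewhere. Of the other hippocampal marker genes, Zbtb20, Dsp, Wfs1 and Pou3f1 were also highest there, at 3.73, 13.8, 232.9 and 58.1 CPM. Elsewhere they reached 2.065, 8.82, 223.7 and 48.8 CPM in that order, so Wfs1 and Pou3f1 were only a little higher there. Wfs1 was lowest in adult replicate 1, at 35.0 CPM. Calb1 and Fibcd1 were not, at 134.8 and 1.27 CPM, against up to 188.4 and 2.53 CPM elsewhere. The muscle sum was highest in adult replicate 3, in which Rxrg was lowest. The 9 striatal genes, none at 0, summed to between 219.2 and 340.6 CPM in adult and between 251.4 and 324.4 CPM in aged rats, with fitted values lower in aged rats for 3 of 9. The 8 oligodendrocyte genes, none at 0, summed to between 11690 and 17610 CPM in adult and between 6895 and 9250 CPM in aged rats. Their fitted values were lower in aged rats for 8 of 8, opposite in sign to Rxrg, against 50.55% of all genes tested. The part of the tissue make-up of adult replicate 3 in the Rxrg values was not tested.

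The binding proteins differed in level and in spread. Crabp1, which delivers retinoic acid to its degrading enzymes, exceeded Crabp2, which delivers it to RARs, in 6 of 6 libraries, by between 1.80 and 14.4 times in FPKM. Crabp1 stood at 9.97, 14.8 and 16.7 CPM in adult and at 9.98, 14.8 and 2.94 CPM in aged rats. Aged replicate 3 was far below the other 5 libraries, which shared a common range in both ages. Its log2 fold change was -0.59 ± 0.50 (SE), with a 95% interval of -1.73 to 0.55, and it was -0.16 without aged replicate 3 and -1.10 without aged replicate 2. The genes most like Crabp1 were Pddc1, Tecta and Frg1l1, at 0.28, 0.35 and 0.35 log2 units. These differences were larger than the 0.16 to 0.25 log2 units of the genes most like Rxrg. Crabp1 and Rxrg each spanned 2.32 log2 units over the 6 libraries.

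Crabp2 is known from the leptomeninges as well as from neurons. It stood at 4.03, 4.30 and 3.73 CPM in adult and at 3.00, 5.30 and 5.26 CPM in aged rats. The adult libraries lay inside the aged range, and the log2 fold change was 0.17 ± 0.30 (SE), with a 95% interval of -0.53 to 0.86. The part of meningeal RNA in the Crabp2 values was not tested.

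Ordered by mean FPKM over the 6 libraries, the 9 genes ran Rxrb (25.3), Aldh1a1 (18.4), Crabp1 (15.2), Rxrg (9.38), Rara (5.23), Rxra (3.87), Rarg (2.26), Crabp2 (1.76) and Rarb (1.08). The ranges of all 8 neighbouring pairs in this order overlapped, and the upper gene of the pair was the higher one in 6 of 6 libraries only for Rxra over Rarg, and in 5 for each other pair.

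The rest of the pathway was taken from lists of its steps, 66 genes besides the 9, of which 65 were in the table and 49 were tested. Of these 0 were called by edgeR with Benjamini-Hochberg adjustment, and 23 had higher and 26 lower fitted values in aged rats. An unadjusted edgeR p under 0.05 was found for 4 of the 49 (Ttr, Rdh12, Ppard and Tgm2), against 3.45% of all genes tested. The Ttr difference rested on adult replicate 1, and its sign was reversed without that library. The aged and adult CPM values did not overlap in 4 genes, with Rdh10 higher and Rdh12, Ppard and Tgm2 lower in aged rats, against 7.56% of all genes tested.

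Retinol supply was represented by 4 tested genes, 2 with higher and 2 with lower fitted values and a median log2 fold change of -0.21, which was 0.44 without adult replicate 1. Ttr, the plasma carrier of retinol binding protein, stood at 2076 CPM in adult replicate 1 and between 4.39 and 68.0 CPM in the others, giving a log2 fold change of -4.23 with that library and 0.33 when it was left out. For Rbp4, the plasma retinol carrier made in liver, the means were 31.3 ± 10.3 CPM at 4 months and 20.9 ± 6.76 CPM at 22 months (SD, n = 3), and further pairs of means are given in that order. Rbp4 was lowest in aged replicates 1 and 3 and adult replicate 1. Stra6, the receptor that takes up retinol from that carrier, averaged 7.61 ± 3.57 and 8.53 ± 1.06 CPM, and was lowest in adult replicate 3. Lrat, which esterifies retinol for storage, held 25 counts over all libraries and was not tested. The part of choroid plexus and liver RNA in these values was not tested.

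Of the genes that interconvert retinol and retinaldehyde, 9 were tested, 3 with higher and 6 with lower fitted values (median log2 fold change -0.09). Rdh12, a retinaldehyde reductase best known from photoreceptors, stood at 5.19, 4.80 and 3.60 CPM in adult and at 1.93, 0.803 and 1.75 CPM in aged rats. Every aged library was below every adult one, and adult replicate 1 was highest. The log2 fold change of Rdh12 was -1.58 ± 0.39 (SE), with a 95% interval of -2.48 to -0.69 (edgeR unadjusted p = 0.00351, adjusted p = 1), from between 10 and 76 counts per library. DESeq2 gave it an adjusted p of 0.155. Rdh10, the main retinol dehydrogenase on the way to retinoic acid, averaged 8.24 ± 0.372 and 9.33 ± 0.664 CPM, with a log2 fold change of 0.18 ± 0.19 (SE). Rdh11 averaged 41.2 ± 3.5 and 43.8 ± 7.67 CPM, and the retinaldehyde reductase Dhrs3 averaged 25.3 ± 4.05 and 23.8 ± 3.29 CPM. Adh1, an alcohol dehydrogenase abundant in liver, stood at 0.341 and 0.533 CPM in the 2 libraries low in liver transcripts and between 2.57 and 9.0 CPM in the other 4.

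Degradation in the brain rests mostly on Cyp26b1, which stood at 3.55, 14.2 and 11.3 CPM in adult and at 17.7, 9.08 and 6.20 CPM in aged rats. The libraries of both ages were widely scattered. Its log2 fold change was 0.19 ± 0.53 (SE), with a 95% interval of -1.03 to 1.41. Leaving out replicate 1 of the adult group gave -0.20, and of the aged group -0.33. Fabp5, which can carry retinoic acid to Ppard, averaged 131.1 ± 9.35 and 119.7 ± 27.8 CPM, and the brain lipid carrier Fabp7 averaged 164.7 ± 34.2 and 128.6 ± 32.7 CPM.

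Among the nuclear receptors that pair with RXRs, 9 of 13 were tested, with 4 higher and 5 lower fitted values (median log2 fold change -0.04). Ppard stood at 20.2, 25.4 and 20.5 CPM in adult and at 17.5, 17.9 and 16.1 CPM in aged rats. All aged libraries were below all adult ones, and the log2 fold change was -0.36 ± 0.15 (SE; edgeR unadjusted p = 0.0496, adjusted p = 1). The liver X receptor gene Nr1h2 averaged 61.4 ± 3.78 and 54.6 ± 5.62 CPM, and its paralog Nr1h3 4.12 ± 0.540 and 4.17 ± 1.70 CPM. The thyroid hormone receptor Thra, the highest of the list, averaged 676.4 ± 76.8 and 657.1 ± 41.6 CPM, and Thrb averaged 33.9 ± 14.3 and 47.4 ± 6.86 CPM. Of the orphan receptors induced by neuronal activity, Nr4a1 averaged 34.5 ± 6.54 and 45.3 ± 11.1 CPM and Nr4a2 averaged 31.2 ± 23.0 and 36.5 ± 9.97 CPM. Pparg held 43 counts in all and was not tested.

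Of the 13 coregulators, all tested, fitted values were split into 9 higher and 4 lower, the median log2 fold change was 0.03, and the groups overlapped in 13 of 13. Ncoa1, a coactivator, averaged 163.1 ± 10.5 and 166.9 ± 16.6 CPM, and the corepressor Ncor1 averaged 101.8 ± 15.5 and 99.6 ± 14.9 CPM. Nrip1, a corepressor that retinoic acid itself induces, averaged 32.5 ± 10.8 and 27.0 ± 9.49 CPM. Hdac3, the deacetylase of the corepressor complex, averaged 77.9 ± 3.43 and 83.1 ± 6.5 CPM.

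**Figure D4:**
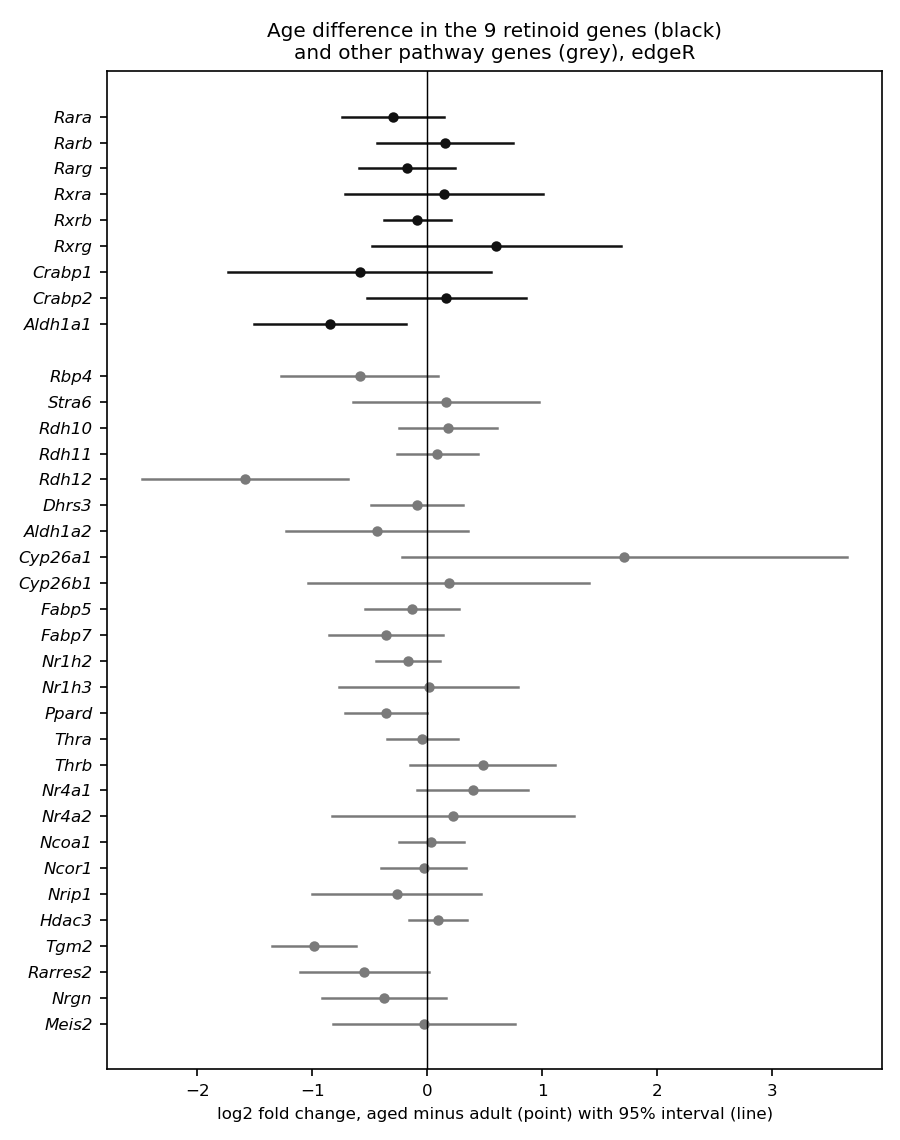
Log2 fold change, aged minus adult, from edgeR (points) with its 95% interval (lines), for the 9 genes (black) and 26 other pathway genes named in the text (grey). Ttr, with an interval of -8.24 to -0.23, and Adh1, with one of -3.27 to 1.27, are not drawn. Among the 9 genes only the interval of Aldh1a1 lies wholly below 0 (-1.51 to -0.19), before any adjustment for the number of genes tested, and that of Rxrb is the narrowest.

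Of 18 genes described as responsive to retinoic acid, 15 were tested, 8 with higher and 7 with lower fitted values (median log2 fold change 0.08). The median was 0.22 without adult replicate 2, 0.0047 without adult replicate 1, -0.14 without adult replicate 3 and -0.0503 without aged replicate 1. Tgm2, the tissue transglutaminase, stood at 23.8, 26.3 and 20.9 CPM in adult and at 12.2, 10.9 and 12.7 CPM in aged rats, so that the groups were well separated. The log2 fold change of Tgm2 was -0.99 ± 0.16 (SE). Adjusted p was 0.510 in edgeR and 0.00129 in DESeq2. Tgm2 was listed with earlier results of these data known, and it is also abundant in endothelium. The 7 endothelial marker genes in the table, none at 0, summed to between 344.6 and 474.1 CPM in adult and between 248.8 and 361.0 CPM in aged rats. Fitted values were lower in aged rats for 7 of 7, against 50.55% of all genes tested. The part of endothelial RNA in the Tgm2 values was not tested. Rarres2, which encodes chemerin, averaged 27.4 ± 8.78 and 18.8 ± 3.07 CPM, the synaptic protein gene Nrgn averaged 3198 ± 986.7 and 2460 ± 288.6 CPM, and the homeobox gene Meis2 averaged 42.6 ± 23.2 and 41.8 ± 7.85 CPM. The developmental targets Hoxb1 and Gbx2 had no count in any library.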

How the data were processed

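The authors deposited raw counts per gene symbol and FPKM values for 6 libraries, and each FPKM value equalled the count over a gene length and library total. The submitters' processing notes name the build Rnor_6.0. Which aligner, annotation and counting tool were used, and whether strand was, is not given in the sources used here. Counts were filtered with filterByExpr, scaled by TMM and tested for aged minus adult, two-sided, with edgeR 4.0.16 (glmQLFit, glmQLFTest, R 4.3.3) over all 14588 genes, with Benjamini-Hochberg adjustment. Standard errors and 95% intervals come from the quasi-likelihood F statistic. With 3 rats per age, an exact permutation test could not go below 0.1.

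The members and lists were chosen with earlier results of these data known. Some listed genes are not reported here and were left out of the lists' counts. Named genes were the 9, a set taken by role, and in each list the 2 with the smallest p at a mean of at least 1 CPM. Most alike genes were sought for members spanning at least 1 log2 unit, on log2(CPM + 0.5). Alternatives were other scalings and filters, DESeq2 1.42.0, limma 3.58.1 (voom, and log2 FPKM with pseudocounts of 1 and 0.1), a replicate block, and libraries left out. Scripts were tested on simulated counts. Promoter windows and overlapping genes came from RefSeq (GRCr8), in which 9 of 9 members matched. Figures used matplotlib 3.10.9.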

Additional observations from a re-analysis of the deposited data

How the results depend on the processing

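Over all genes, edgeR called 0 under every scaling, filter and threshold tried, while DESeq2 called 31 and limma on log2(FPKM + 1) called 2, and leaving out a library gave 0 to 1. Of the 9 genes, 0 were called under any of these settings. With the replicate number as a block 0 genes and 0 of the 9 were called. Deviations of same-numbered libraries correlated at -0.14, -0.11 and 0.06, and those of differently numbered ones at -0.12 to 0.20. Deviations from the mean of only 3 libraries cannot show whether the numbers pair the rats. Aldh1a1, Crabp1, Crabp2, Rara, Rarb, Rarg and Rxrg kept their sign in 18 of 18 alternatives. With a library left out, the log2 fold change ran from -0.0745 to 0.60 for Rxra, -0.15 to 0.0285 for Rxrb, -0.14 to 0.55 for Stra6, -4.93 to 0.33 for Ttr, -0.039 to 0.21 for Rdh11, -0.21 to 0.0047 for Dhrs3, -0.33 to 0.57 for Cyp26b1, -0.29 to 0.0372 for Fabp5, -0.36 to 0.21 for Nr1h3, -0.12 to 0.0291 for Thra, -0.0588 to 1.03 for Nr4a2, -0.14 to 0.10 for Ncor1, -0.012 to 0.12 for Ncoa1 and -0.28 to 0.50 for Meis2. Without replicate 1 of both ages, an alternative chosen after seeing the data, it was -0.0027 for Rxra, 0.86 for Ttr, 0.0633 for Dhrs3, -0.72 for Cyp26b1, -0.20 for Nr4a2 and -0.0622 for Ncoa1. For Nr1h3 it was -0.0841 with limma-voom, -0.0087 with log2(FPKM + 1) whether filtered or not, -0.0285 with log2(FPKM + 0.1) and -0.0441 with the replicate block. For Meis2 it was 0.0704, 0.0817, 0.0989 and 0.0792 in the same order. The cause was not tested. Rarb, Rxra and Crabp2 rest on 378 to 479 counts over all libraries, which limits their precision.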
